A study of Mus musculus with 6 samples.

Results

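The genes described here are 8 transcription factors that drive or maintain muscle identity, Myod1, Myog, Myf5, Myf6, Mef2a, Mef2c, Mef2d and Pax7, together with the fusion gene Mymk. They were selected by name, with earlier results of these data known. Where several probe sets were tied to a gene's symbol alone, the one with the highest mean over the 6 arrays was used. All 9 were measured, out of 19938 genes that had a probe set tied to their symbol alone. Only Mef2d had more than 1 such probe set.

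Expression was measured in myotubes of C2C12, a mouse myoblast line whose cells fuse into multinucleated muscle fibres when serum is lowered. Cells were transfected with 10 nM siRNA against Plin2, which encodes a protein that coats lipid droplets, or with scrambled siRNA. They then received 200 µM palmitate or oleate bound to albumin (BSA), or BSA alone, for 20 h. The 6 conditions were Plin2 siRNA with palmitate, with oleate and with BSA, and scrambled siRNA with palmitate, with oleate and with BSA. Each condition had 1 array. All 6 shared the cell line, the low-serum differentiation over a week, the transfection and the albumin carrier. The comparisons asked how loss of Plin2 changes gene expression and whether it changes the response to fatty acids. The labels do not say whether the 6 cultures were separate or grown together. The spread behind each p-value, taken between arrays, may therefore be technical. In the additive fit it also holds any siRNA difference that varies between treatments.

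The myogenic regulatory factors Myod1, Myf5, Myog and Myf6 are basic helix-loop-helix proteins that pair with E proteins and bind E-boxes, short DNA words of the form CANNTG. Myf5 and Myod1 commit cells to the muscle lineage, Myog drives differentiation, and Myf6 (MRF4) is the factor most abundant in adult fibres. Mef2 proteins are MADS-box factors that bind AT-rich sites beside E-boxes and act together with the myogenic factors. Pax7 marks muscle stem cells, and Mymk (myomaker) is a membrane protein needed for myoblasts to fuse.

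Values are log2 expression made by RMA, so a difference of 1 unit is a doubling or halving. Array medians over named probe sets lay between 5.78 and 5.83. Plin2 itself was at 7.45, 7.63 and 6.95 (palmitate, oleate and BSA) with Plin2 siRNA, against 10.10, 10.03 and 9.29 with scrambled siRNA. The defining genes of myotubes were high in every array: the mean log2 value of 8 markers was 12.18 to 12.27 with Plin2 siRNA and 12.36 to 12.59 with scrambled siRNA. Of these 8 markers, 6 fell and 1 rose with Plin2 siRNA. Here and for the next markers, a rise or fall is a limma adjusted p under 0.05. Of all named probe sets 17.1% passed this, 8.5% upward and 8.58% downward. The means of 7 measured adipocyte markers overlapped, at 4.71 to 4.89 with Plin2 siRNA and 4.66 to 4.89 with scrambled siRNA. For 8 fibroblast markers they were 7.44 to 7.55 and 7.51 to 7.57, and 1 of the 8 rose. For 6 smooth muscle markers they were 7.64 to 7.73 with Plin2 siRNA and 7.90 to 8.14 with scrambled siRNA, and 2 of the 6, Cnn1 and Tagln, fell. Means of 6 myoblast markers were 9.56 to 9.66 with Plin2 siRNA and 9.79 to 9.96 with scrambled siRNA, with 1 that rose and 3 that fell. The part of these shifts in the results below was not tested. In RNA from whole cultures, fewer cells of a type and less RNA per cell cannot be told apart.

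With Plin2 siRNA, 5 of the 9 genes rose (Myf6, Mef2c, Myf5, Myod1 and Mef2d) and 2 fell (Myog and Mef2a), while Pax7 and Mymk did not pass the threshold. Calls are those of limma at an adjusted p under 0.05, from an additive fit of siRNA and treatment over all 6 arrays. Over all 21789 named probe sets, 17.1% passed, 8.5% upward and 8.58% downward. All 9 genes were kept when the probe sets with the lowest means were dropped. That fit called 4078 of the fewer probe sets left, against 3721 of all 21789. The share called at the levels of these genes was therefore higher than 17.1%. The median change was 0.29 over the 9 genes and 0.0069 over all probe sets. For 7 of the 9 genes the 3 Plin2 siRNA values did not overlap the 3 scrambled values, against 30.3% of all named probe sets.

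**Figure D1:**
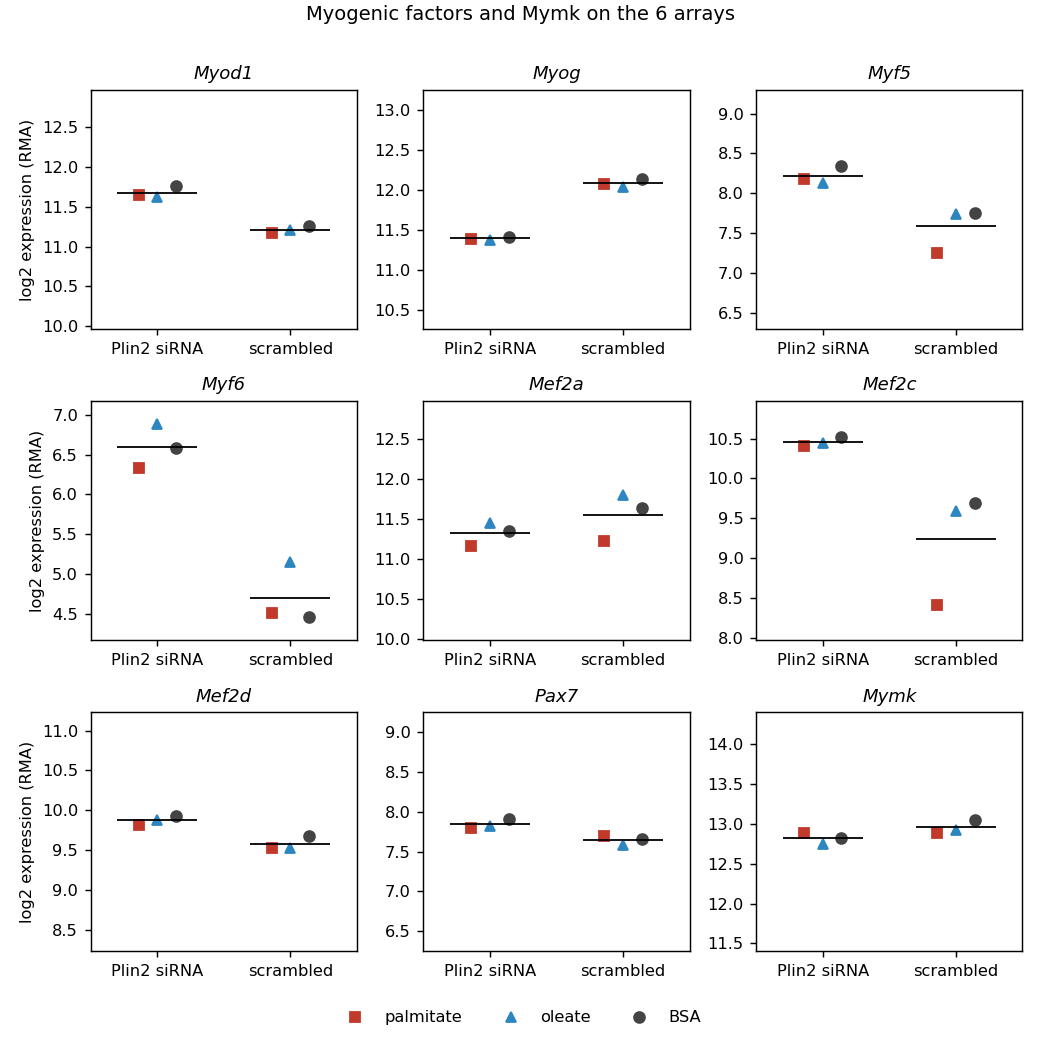
Log2 expression of the 9 genes on each array (vertical axes, all with the same span), with Plin2 siRNA left and scrambled siRNA right. Points are single arrays, coloured by treatment, and bars are means of 3. Myf6, Mef2c, Myf5, Myod1, Mef2d and Pax7 lie higher with Plin2 siRNA in all 3 treatments, Myog lies lower, and the groups overlap for Mef2a and Mymk.

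Among the factors of lineage commitment, Myod1 rose. With Plin2 siRNA it was at 11.65 in palmitate, 11.62 in oleate and 11.76 in BSA, against 11.17, 11.21 and 11.26 with scrambled siRNA. Every Plin2 siRNA array was above every scrambled array. The change was 0.46 log2 units (SE 0.055, 95% CI 0.34 to 0.58, n = 3 pairs of arrays, limma adjusted p = 1.6e-04), a 1.38-fold rise. The 3 pairs lay close together, at 0.48, 0.41 and 0.50.

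Myf5, the other commitment factor, rose by a larger and less even amount. It was at 8.18 in palmitate, 8.13 in oleate and 8.34 in BSA with Plin2 siRNA, against 7.25, 7.74 and 7.76 with scrambled siRNA. The groups did not overlap, and the scrambled palmitate array stood below the other two scrambled arrays. The change was 0.63 (SE 0.10, 95% CI 0.41 to 0.85, limma adjusted p = 0.0012), or 1.55-fold, with pair values of 0.93 in palmitate, 0.39 in oleate and 0.58 in BSA.

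Pax7, the stem cell factor, was higher in all 3 pairs but did not pass the threshold. Its values were 7.80 in palmitate, 7.82 in oleate and 7.91 in BSA with Plin2 siRNA, against 7.69, 7.58 and 7.66 with scrambled siRNA. The groups did not overlap, although the lowest Plin2 siRNA value and the highest scrambled value were close. The difference was 0.20 (SE 0.079, 95% CI 0.023 to 0.37, limma adjusted p = 0.13).

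Myog (myogenin), the factor of terminal differentiation, fell. It was at 11.39 in palmitate, 11.37 in oleate and 11.41 in BSA with Plin2 siRNA, against 12.08, 12.04 and 12.14 with scrambled siRNA. The 2 groups of arrays were clearly separate, and each was tight. Over its 3 arrays, 1 per treatment, the SD was 0.021 for Plin2 siRNA and 0.047 for scrambled siRNA. The change was -0.69 (SE 0.053, 95% CI -0.81 to -0.58, limma adjusted p = 6.6e-06), to 0.619 of the scrambled level. Myog therefore moved opposite to the other 3 myogenic regulatory factors.

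The Myog promoter is shown because Myog is a textbook target of both the myogenic regulatory factors and Mef2 proteins, and the Mef2c promoter because Mef2c showed the second-largest change. Sequences are from the RefSeq promoter table (GRCm38.p6), in which 6 of the 9 genes were matched, and cover the 250 bases before the start. Myog lies at chr1:134289754-134290003 on the plus strand. For Mef2c the first of 3 listed starts is shown, at chr13:83503784-83504033 on the plus strand. Capitals mark matches to CANNTG (its own reverse complement) and to CTANNNNTA on either strand, the latter a short core of Mef2 sites. The 2 motifs did not overlap in these windows.
Myog: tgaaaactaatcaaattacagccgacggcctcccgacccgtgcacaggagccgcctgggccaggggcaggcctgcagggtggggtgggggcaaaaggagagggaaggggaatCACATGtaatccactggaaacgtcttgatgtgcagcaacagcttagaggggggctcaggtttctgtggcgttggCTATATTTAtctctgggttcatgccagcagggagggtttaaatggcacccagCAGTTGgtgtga
Mef2c: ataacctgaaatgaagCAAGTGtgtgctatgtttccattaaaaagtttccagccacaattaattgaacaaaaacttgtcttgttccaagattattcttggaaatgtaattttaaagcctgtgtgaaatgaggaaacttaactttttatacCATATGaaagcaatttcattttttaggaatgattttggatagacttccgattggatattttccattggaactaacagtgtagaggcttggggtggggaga
In Myog, CANNTG occurred at -138 (CACATG) and -12 (CAGTTG) from the start, and the Mef2 core at -64. At the first Mef2c start, CANNTG occurred at -234 (CAAGTG) and -100 (CATATG), with 0 matches to the Mef2 core. The second Mef2c start held neither motif, and the third held CANNTG at -245 and the Mef2 core at -191. Of the 8 listed promoters of these genes, 3 held CANNTG and 3 held the Mef2 core, against 66.2% and 19.0% of all 32851 promoters in the table. Mef2c gave 3 of the 8, so they are not 8 separate genes. For Myod1, Myf6 and Mymk no promoter was matched. These are matches of letters only and say nothing of binding.

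Myf6, the factor of mature fibres, showed the largest change of the 9 genes. Its values were 6.34 in palmitate, 6.88 in oleate and 6.58 in BSA with Plin2 siRNA, against 4.51, 5.15 and 4.46 with scrambled siRNA. The groups did not overlap, and both were highest in oleate. The scrambled values were low, below the array medians of 5.78 to 5.83, and whether they lay above background was not tested, so the size of the fold is uncertain. The change was 1.89 (SE 0.12, 95% CI 1.64 to 2.15, limma adjusted p = 1.5e-06), a 3.72-fold rise. It was 1.83 in palmitate, 1.73 in oleate and 2.12 in BSA.

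The 3 Mef2 genes did not move together. Mef2c, the member most tied to muscle and heart development, rose in every treatment. It was at 10.41 in palmitate, 10.45 in oleate and 10.52 in BSA with Plin2 siRNA, against 8.42, 9.60 and 9.70 with scrambled siRNA. The Plin2 siRNA arrays were nearly level, whereas scrambled palmitate lay more than 1 unit below the other two scrambled arrays. The change was 1.23 (SE 0.17, 95% CI 0.84 to 1.61, limma adjusted p = 5.4e-04), or 2.34-fold. Its pair values were 2.00 in palmitate, 0.85 in oleate and 0.83 in BSA, and the change was 0.84 when either palmitate array was left out.

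Mef2d, a broadly expressed member of the family, rose modestly. It was at 9.81 in palmitate, 9.88 in oleate and 9.93 in BSA with Plin2 siRNA, against 9.53, 9.53 and 9.68 with scrambled siRNA. The groups did not overlap. The change was 0.29 (SE 0.063, 95% CI 0.16 to 0.43, limma adjusted p = 0.0073), or 1.23-fold, and did not pass with no intensity trend (adjusted p = 0.063). Its other probe set changed the same way by 0.81 (SE 0.10, limma adjusted p = 2.8e-04), so the size of the Mef2d change differed between its probe sets.

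Mef2a, which is also broadly expressed, fell slightly. It was at 11.16 in palmitate, 11.45 in oleate and 11.36 in BSA with Plin2 siRNA, against 11.22, 11.80 and 11.63 with scrambled siRNA. The groups overlapped because the scrambled palmitate value was below the Plin2 siRNA values in oleate and BSA, but each pair was lower with Plin2 siRNA. The change was -0.23 (SE 0.064, 95% CI -0.37 to -0.091, limma adjusted p = 0.029), to 0.851 of the scrambled level. This call was lost without either BSA array (adjusted p = 0.22), without either oleate array (adjusted p = 0.098) and after median centring (adjusted p = 0.078). It was also lost with no intensity trend (adjusted p = 0.17), with unnamed probe sets fitted too (adjusted p = 0.12) and with no treatment term (adjusted p = 0.30).

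Mymk, the fusion gene, did not pass the threshold. It was at 12.89 in palmitate, 12.75 in oleate and 12.82 in BSA with Plin2 siRNA, against 12.89, 12.93 and 13.05 with scrambled siRNA. The groups overlapped, and the palmitate pair differed by 0.0029 where oleate and BSA gave -0.18 and -0.23. The difference was -0.13 (SE 0.057, 95% CI -0.26 to -0.0074, limma adjusted p = 0.15). Without either palmitate array it was -0.20 and passed (limma adjusted p = 0.025 and 0.026), in fits with 1 residual degree of freedom.

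**Figure D2:**
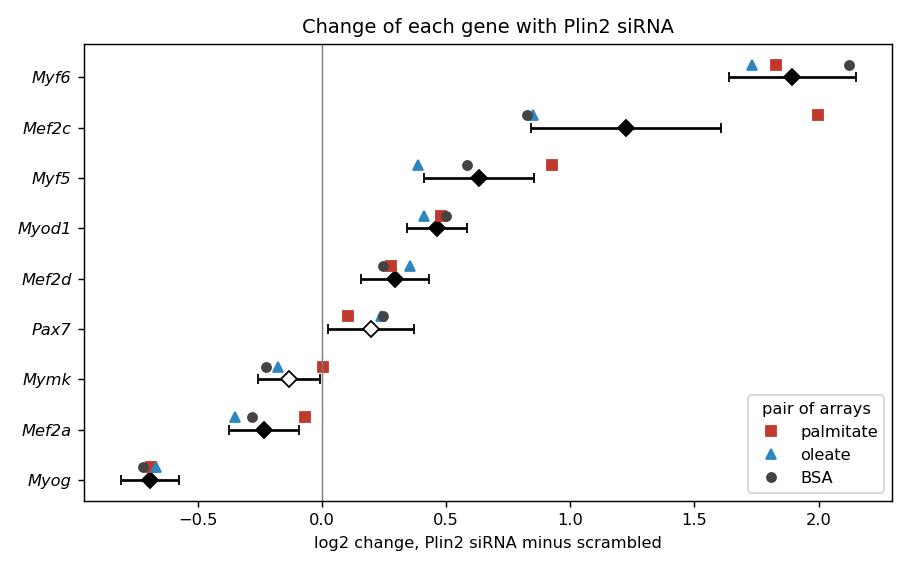
Log2 change of each gene, Plin2 siRNA minus scrambled (horizontal axis). Diamonds are limma estimates with 95% confidence intervals, filled where the adjusted p is under 0.05, and coloured symbols are the 3 pairs of arrays. Myf6 (1.89) and Mef2c (1.23) are farthest right, Mef2c with its palmitate pair apart at 2.00, and Myog (-0.69) is farthest left.

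With either fatty acid, 0 of the 9 genes passed the limma threshold. At an unadjusted limma p under 0.05 there were 3 with palmitate and 1 with oleate. Of all 21789 named probe sets, 1134 did so with palmitate and 1365 with oleate. At the adjusted threshold 0.00918% of them passed with palmitate and 0.0734% with oleate (0.0321% higher), so few calls were made on any gene. The fatty acid contrasts share the BSA arrays, and each rests on n = 2 pairs.

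With palmitate all 9 genes had a fitted difference below 0, with a median of -0.11 against -0.0078 over all probe sets. The separate arrays were less uniform, with 8 of 9 genes lower than BSA under Plin2 siRNA and 7 of 9 under scrambled siRNA. Mef2c had the lowest fitted value, at -0.70 (SE 0.21, 95% CI -1.16 to -0.23, limma adjusted p = 0.87). That value averages -0.11 with Plin2 siRNA and -1.28 with scrambled siRNA, and it rested on 1 array: it was -0.12 without the scrambled palmitate array and -1.28 without the Plin2 siRNA palmitate array. In each of these the palmitate arm has a single array, whose spread is taken from the other groups. Myf5 stood at -0.33 (SE 0.12, limma adjusted p = 0.90), made of -0.16 with Plin2 siRNA and -0.51 with scrambled siRNA. Mef2a stood at -0.30 (SE 0.079, limma adjusted p = 0.72), made of -0.20 with Plin2 siRNA and -0.41 with scrambled siRNA. Myod1 differed from BSA by -0.12 with Plin2 siRNA and -0.098 with scrambled siRNA. For Myog these values were -0.023 with Plin2 siRNA and -0.059 with scrambled siRNA.

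With oleate, Myf6 had the largest difference, at 0.50 (SE 0.14, 95% CI 0.19 to 0.81, limma adjusted p = 0.47). It was higher than BSA under both siRNAs, by 0.30 with Plin2 siRNA and 0.69 with scrambled siRNA. Mef2a was also higher, by 0.098 with Plin2 siRNA and 0.17 with scrambled siRNA, with a fitted difference of 0.13 (SE 0.079, limma adjusted p = 0.85). The other 7 genes were lower than BSA under both siRNAs, with fitted differences of -0.11 to -0.067.

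Palmitate and oleate, given at 200 µM for 20 h each, form 1 pair of compounds: palmitate is saturated, and oleate is longer and has a double bond. At an unadjusted limma p under 0.05 there were 3 of the 9 genes, against 2007 of all 21789 named probe sets. At the adjusted threshold 0 of the 9 passed, against 0.262% of those probe sets. Mef2a came closest, lower with palmitate by -0.44 (SE 0.079, 95% CI -0.61 to -0.26, limma adjusted p = 0.057). It was lower in palmitate than in oleate by -0.30 under Plin2 siRNA and -0.58 under scrambled siRNA. Mef2c differed by -0.61 (95% CI -1.08 to -0.14, limma adjusted p = 0.43), made of -0.037 with Plin2 siRNA and -1.18 with scrambled siRNA. Without the scrambled palmitate array the Mef2c value was -0.031, and without the Plin2 siRNA palmitate array -1.19. Myf6 differed by -0.59 (95% CI -0.91 to -0.28, limma adjusted p = 0.17). For Myod1 the difference was -0.0080 (95% CI -0.16 to 0.14) and for Myog 0.026 (95% CI -0.12 to 0.17).

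**Figure D3:**
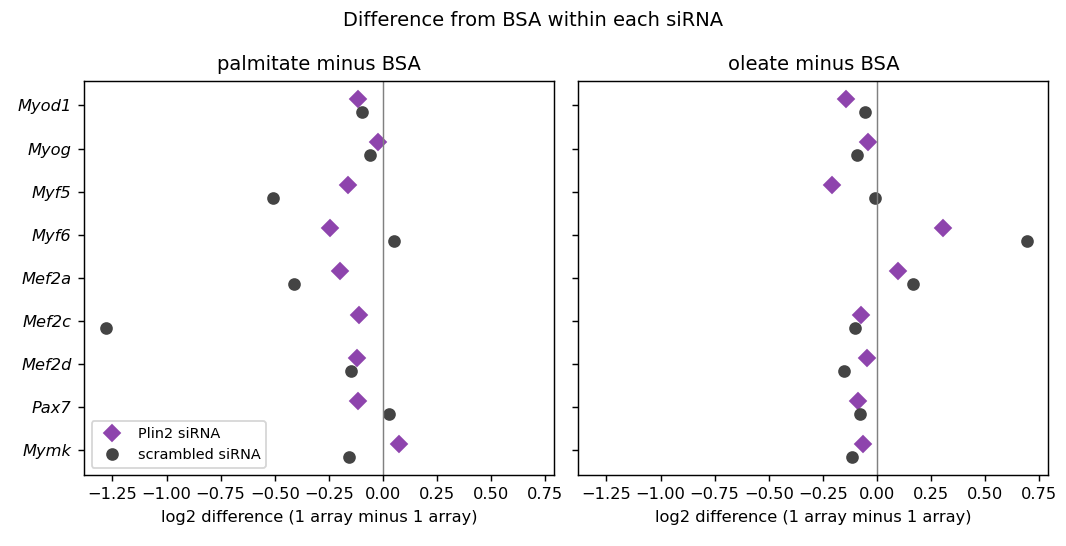
Log2 difference from BSA for palmitate (left) and oleate (right) in each gene, with 1 point for Plin2 siRNA and 1 for scrambled siRNA, each from a single pair of arrays. Scrambled Mef2c in palmitate (-1.28) stands apart from Plin2 siRNA Mef2c (-0.11), and Myf6 lies right of 0 in oleate under both siRNAs.

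Whether the response to fatty acid differed between siRNAs was tested with an added siRNA term for any fatty acid, which left 1 residual degree of freedom. By limma 0 of the 9 genes passed, and 0% of all named probe sets passed. At an unadjusted limma p under 0.05 there was 1 of the 9 genes, against 551 of all 21789 named probe sets. Mef2c had the largest value, at 0.60 (SE 0.28, limma adjusted p = 1.00). A term for palmitate alone, chosen after the data were seen, gave 1.16 for Mef2c (SE 0.12, 95% CI 0.89 to 1.42, limma adjusted p = 0.0036), where 0.0413% of probe sets passed, 0.0229% higher and 0.0184% lower. That term sets the siRNA difference in palmitate against the mean of those in oleate and BSA, and rests on 1 array per condition. Its adjusted p was 0.41 when limma used no intensity trend and 0.62 when the unnamed probe sets were fitted too, so neither setting kept the call. Myf5 followed at 0.44 (95% CI 0.095 to 0.79, limma adjusted p = 0.39) and Mef2a at 0.25 (95% CI 0.017 to 0.48, limma adjusted p = 0.45).

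Genes with which these factors work are described by counts, beside the 17.1% of all named probe sets called with Plin2 siRNA. The lists were chosen with earlier results of these data known, so counts above that share may follow from the choice. Of 3 E proteins, the dimer partners of the myogenic factors, 2 rose and 0 fell: Tcf4 by 0.58 (limma adjusted p = 1.2e-04) and Tcf12 by 0.30 (adjusted p = 0.010). The third, Tcf3, stood at -0.053. Of 22 measured inhibitors and repressors, 8 rose and 1 fell, with a median of 0.21. Id3, which sequesters E proteins, rose by 1.60 (limma adjusted p = 3.6e-07), Snai2, a repressor that competes for E-boxes, by 0.99, and the Notch-responsive repressor Hey1 by 0.97. The repressor Bhlhe40 fell by 1.00 (limma adjusted p = 8.0e-06).

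Of 30 measured coactivators and upstream activators, 7 rose and 4 fell, with a median of 0.046. Ppargc1a, a coactivator that Mef2 proteins recruit, rose by 1.52 (limma adjusted p = 7.5e-06). It was at 5.96 to 6.20 with Plin2 siRNA, against 4.34 to 4.65 with scrambled siRNA, where it was below the array medians. Eya1, a partner of SIX-family factors, rose by 0.59. The p38 kinase gene Mapk12 changed by -0.88 (limma adjusted p = 1.5e-05) and Tead4, a muscle-enriched TEAD factor, by -0.76. Calls in this list therefore went both ways.

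Of 25 fusion genes, 8 fell and 2 rose, with a median of -0.031. Mymx, the partner of Mymk in membrane fusion, changed by -0.98 (SE 0.078, limma adjusted p = 8.5e-06), while Mymk itself did not pass. Mymx was at 8.38 in palmitate, 8.26 in oleate and 8.34 in BSA with Plin2 siRNA, against 9.19, 9.38 and 9.36 with scrambled siRNA. These groups did not overlap. The laminin receptor Itga7 (-0.73) and M-cadherin, Cdh15 (-0.62), also fell, and the adhesion molecule Jam3 rose by 0.84.

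Of 40 differentiation targets, genes switched on by the myogenic and Mef2 factors, 19 fell and 2 rose, with a median of -0.20. The 8 myotube markers described above are among these 40 and are counted again here. The slow myosin light chain Myl2 changed most (-3.05, SE 0.14, limma adjusted p = 2.1e-07), followed by the small heat shock gene Hspb7 (-1.30), the Z-disc gene Myoz2 (-1.06) and the actin-binding gene Xirp1 (-0.74). Myl2 was at 4.60 to 5.10 with Plin2 siRNA, below the array medians, against 7.48 to 8.10 with scrambled siRNA. For Myl2 and Ppargc1a too, whether the low group lay above background was not tested. Of 18 satellite cell and myoblast markers, 4 rose and 5 fell, with a median of -0.0042. This list holds the myoblast markers described above except Cdh15, which is among the fusion genes. Spry1, an inhibitor of growth factor signalling, rose by 0.80, and Megf10 (-0.74), Cd34 (-0.51) and Fgfr1 (-0.46) fell.

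With the fatty acids, 0 genes of these lists passed against BSA. Between palmitate and oleate 2 passed, against 0.262% of all named probe sets. They were Bhlhe40 (0.56, limma adjusted p = 0.048), of 22 measured inhibitors and repressors, and the fast myosin gene Myh4 (-0.77, limma adjusted p = 0.048), of 40 differentiation targets. In this comparison 0 probe sets passed without the intensity trend, with unnamed probe sets fitted too or with no siRNA term.

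**Figure D4:**
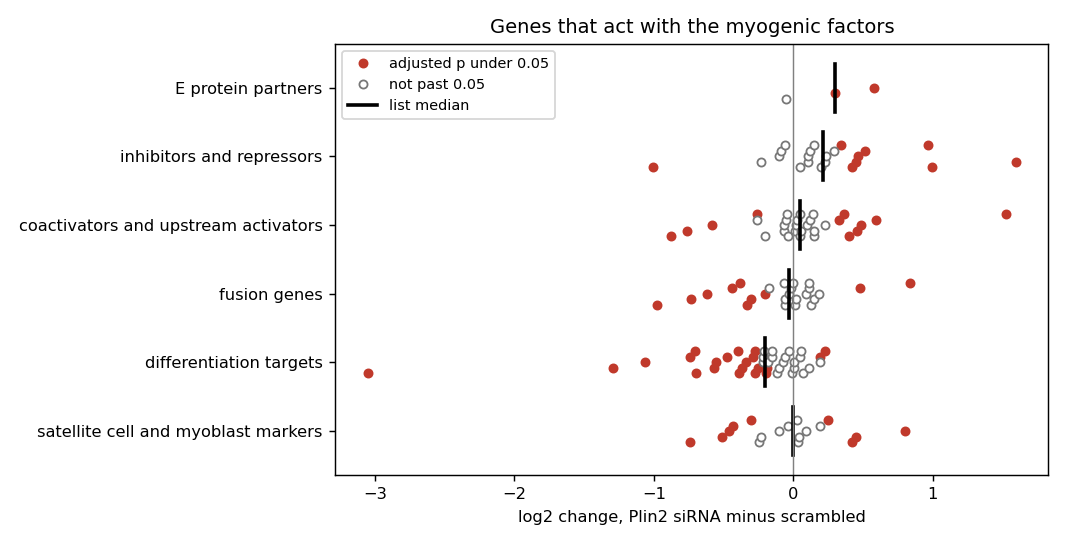
Log2 change with Plin2 siRNA (horizontal axis) of every measured gene in the 6 lists (rows), filled where the adjusted p is under 0.05, with the list median as a vertical bar. The medians of inhibitors (0.21) and E proteins (0.30) lie right of 0 and that of differentiation targets (-0.20) left of it.

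Genes were sought whose profile over the 6 arrays was most like that of the most variable members. The measure was the root mean square difference between profiles centred on their own means, in log2 units. The genes were chosen on these same arrays, so a feature shared with the member follows from the choice and adds no separate evidence. For Myf6 they were Robo2 (0.078), Id3 (0.21), Itga4 (0.21), Ldhb (0.24) and Trp63 (0.24). Robo2, an axon guidance receptor, was at 7.31 in palmitate, 7.69 in oleate and 7.54 in BSA with Plin2 siRNA, against 5.42, 6.15 and 5.26 with scrambled siRNA. It shared with Myf6 the higher level in oleate under both siRNAs.

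For Mef2c the closest were Wdr44 (0.16), Pdgfd (0.17), Dgke (0.23), Parm1 (0.24) and Atp13a5 (0.25). Each was lowest in scrambled palmitate, as Mef2c was, a feature that the choice by likeness favours. Wdr44 was at 6.56 there, against 7.64 in scrambled oleate and 7.47 in scrambled BSA. For Myf5 they were Gzf1 (0.073), Lrrc1 (0.079), Zfp101 (0.083), Pigs (0.084) and Hif1an (0.084). All were also lowest in scrambled palmitate, again a feature favoured by the choice. None of the closest genes of these 3 was a member. With 5 taken for each out of 19938 genes, this says little of whether members moved together. Among the members themselves, Mef2d and Pax7 were the closest pair (0.072), followed by Myod1 and Mef2d (0.096). The measure is not scaled, so genes that vary little tend to lie close whatever their pattern. Over the 6 arrays the SD was 0.12 for Pax7, 0.17 for Mef2d and 0.26 for Myod1, against 1.08 for Myf6.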

How the data were processed

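RNA was hybridised to Affymetrix whole-transcript arrays, 1 for each of 6 conditions. The values are log2 expression per probe set, made by the authors with RMA (background correction, normalization and probe summary), per the submitters' processing notes. The sources used here give neither its version nor a build. RMA draws arrays to a common distribution, so a shift shared by most genes would not show. Values were used as deposited, with no filter on low signal. The platform annotation of GEO tied 21789 of 35556 probe sets to 1 gene symbol.

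The fit used limma 3.58.1 under R 4.3.3, with treatment and siRNA as terms and eBayes with an intensity trend, and had 2 residual and 9.21 prior degrees of freedom. Benjamini-Hochberg adjustment ran over all 21789 probe sets, and calls were made under 0.05. Alternatives were no trend, all probe sets, other scaling, other filters, other terms and arrays left out. The script was tested on simulated data. The members, the lists and the rules were chosen with earlier results of these data known. Named genes were all members, up to 4 called genes per list with the largest change, and the 5 genes closest in profile to each of the 3 members with the largest SD. The number of arrays limits the precision.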

Additional observations from a re-analysis of the deposited data

Results flagged for a closer look

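The siRNA difference of Mef2c in palmitate stood apart from that in the other treatments, by 1.16 log2 units in a limma fit of all 6 arrays (adjusted p = 0.0036). This is the pair value of 2.00 in palmitate set against the mean of 0.85 in oleate and 0.83 in BSA. The term was chosen after the data were seen, and each condition has 1 array. The planned term for any fatty acid gave 0.60 (limma adjusted p = 1.00), and the palmitate term did not pass with no intensity trend (adjusted p = 0.41) or with unnamed probe sets fitted too (adjusted p = 0.62). From the 4 palmitate and BSA arrays alone, with no test, the difference was 1.17, and from the 4 oleate and BSA arrays 0.025.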

How the results depend on the processing

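No paired analysis by replicate number was possible because each condition has 1 array. The siRNA change of the 9 genes kept its direction in all alternatives. Where only the trend, the terms, the test or the probe sets fitted changed, the estimate was the same by construction. Its direction could not change there. Leaving out either array of a pair also gave the same estimate, that of the remaining pairs. The count of 7 genes called was 5 without the intensity trend, where Mef2a and Mef2d were lost. It was 6 to 8 with 1 array left out, and 0 in a paired test without moderation (adjusted p 0.17 to 0.38 for the 7). A fit with 1 array left out has 1 residual degree of freedom, so its p-values rest largely on the prior. All named probe sets called numbered 2403 without the trend, 1674 when unnamed ones were fitted too, 0 in the paired test and 2213 to 3836 with 1 array left out.

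For palmitate, 2 genes, Mef2c and Mef2a, passed in a fit of only the 4 palmitate and BSA arrays, which has 1 residual and 690.5 prior degrees of freedom, and 0 to 2 with 1 array left out (both without either oleate array or the Plin2 siRNA palmitate array). Probe sets called with palmitate numbered 0 with unnamed ones fitted too, 0 when the siRNA term was dropped, 119 on 4 arrays and 2 to 117 with 1 array left out. With oleate they numbered 2 without the trend, 0 with unnamed ones, 31 when dim ones were dropped, 0 with no siRNA term, 64 on 4 arrays and 3 to 262 with 1 array left out. Between palmitate and oleate 1 gene, Mef2a, passed when dim probe sets were dropped, and 0 to 3 with 1 array left out (Mef2a, Mef2c and Myf6 without the Plin2 siRNA oleate array, Mef2a and Mef2c without the Plin2 siRNA palmitate array). Probe sets there numbered 0 without the trend, with unnamed ones or with no siRNA term, 36 after quantile normalization, 30 after centring, 86 on 4 arrays and 30 to 538 with 1 array left out. The palmitate interaction called 9 probe sets, 1 of them Mef2c; it called 29 when dim ones were dropped, and 0 probe sets and 0 of the 9 genes without the trend or with unnamed ones.

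Some small uncalled differences changed sign. Myod1 between palmitate and oleate was 0.017 after quantile normalization, and Mef2d with oleate 0.015 as the mean of its probe sets. With 1 array left out the ranges were, with oleate, -0.39 to 0.21 for Mef2c and -0.29 to 0.075 for Myf5, and, with palmitate, -0.27 to 0.075 for Myf6, -0.14 to 0.059 for Mymk and -0.11 to 0.025 for Pax7. Between palmitate and oleate they were -0.048 to 0.033 for Myod1, -0.082 to 0.0095 for Mef2d, -0.029 to 0.11 for Pax7 and -0.053 to 0.15 for Mymk. The causes were not tested.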
